A study of Mus musculus with 9 samples.

Results

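The genes described here are the small GTPases, coat subunits and sorting nexins of vesicle traffic. They were taken by symbol, as every gene of the arrays whose name starts with Rab, Arf, Arl, Snx or Vps and a digit, or with Cop and 1 of the letters a, b, e, g or z. The rule found 97 genes among 8146 genes with a symbol, and all 97 were among the 8106 genes that could be tested. They were spotted as 140 clones, of which 139 could be tested. A further 4 clones carried such a symbol beside that of another gene and were left out. The rule goes by name alone, so it also takes in Vps72, which encodes a chromatin protein.

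Stroma was laser-microdissected from prostates of male FVB mice hemizygous for the CR2-TAg transgene, in which regulatory elements of the cryptidin-2 gene drive SV40 large T antigen in neuroendocrine cells of the prostate. The arrays compared stroma of invasive cancer from 24-week-old mice (6 arrays) with stroma around prostatic intraepithelial neoplasia, PIN, from 10-week-old mice (3 arrays, replicates 2, 3 and 4), each array holding the amplified RNA of 1 mouse, and asked which stromal genes change with invasion. Every sample was labelled with Cy5 and set against 1 Cy3-labelled pool of 4 PIN samples, and a value is the log2 of sample signal over pool signal. All mice carried the transgene, and age and tumour stage cannot be told apart. The 24-week-old mice also had metastases, and their stroma was dissected out to a greater distance from the epithelium than PIN stroma. These differences between the groups cannot be told apart from stage either. RNA of every PIN sample was also part of the pool, so the PIN ratios and their spread lie nearer 0 than against an independent pool, by an amount that could not be measured here. No dyes were swapped, and a log ratio does not show how strongly a gene is expressed. In microdissected tissue, fewer cells of a type and less RNA per cell cannot be told apart.

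Rab GTPases sit on the membranes of particular compartments in their GTP-bound form and recruit the effectors that move, tether or fuse vesicles there. Arf GTPases start the budding of vesicles by recruiting coats, among them COPI, the coat of transport within the Golgi and back to the endoplasmic reticulum. Retromer and the sorting nexins pull cargo out of endosomes before it reaches the lysosome, and the other Vps proteins tether membranes (HOPS and CORVET), sort cargo into multivesicular bodies (ESCRT) or receive vesicles at the Golgi.

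Of the 97 genes, 3 were higher and 3 lower in invasive stroma at an adjusted p under 0.15 (limma, Benjamini-Hochberg over all genes), the false discovery rate of the study. That is 6.19% of them, against 5.64% of all genes, so vesicle traffic genes were called about as often as genes in general. The higher genes were Snx6, Snx8 and Arf6, and the lower genes were Rab11fip3, Rab3ip and Rab27a. By direction, the 3 higher genes were 3.09% of the members, against 3.75% of all genes, and the 3 lower genes were 3.09%, against 1.89%. No member passed an adjusted p of 0.05, which 0.938% of all genes did (0.703% higher and 0.234% lower), while 14 members (14.4%) had an unadjusted p under 0.05, against 15.0% of all genes.

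The sequence just upstream of the start site is shown for the 5 called genes that the RefSeq promoter table (GRCm38.p6) holds, so that the genes can be seen by their promoters as well as by name. Each line is 250 bases ending just before the start, 5′ to 3′ along the gene, and capitals mark matches to CACGTG (an E-box), TGACGTCA (a cAMP response element) or GGGCGG (a GC box) on either strand. The windows lie at chr12:54795663-54795912 (Snx6, minus strand), chr5:140389309-140389558 (Snx8, minus strand), chr17:26069519-26069768 (Rab11fip3, minus strand, the first of 2 starts), chr10:116950454-116950703 (Rab3ip, minus strand) and chr9:73044560-73044809 (Rab27a, plus strand, the first of 2 starts).
Snx6: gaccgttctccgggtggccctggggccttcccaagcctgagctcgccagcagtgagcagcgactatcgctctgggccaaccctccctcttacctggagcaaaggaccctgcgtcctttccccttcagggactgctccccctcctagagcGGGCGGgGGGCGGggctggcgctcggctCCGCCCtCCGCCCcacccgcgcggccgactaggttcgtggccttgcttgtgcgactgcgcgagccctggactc
Snx8: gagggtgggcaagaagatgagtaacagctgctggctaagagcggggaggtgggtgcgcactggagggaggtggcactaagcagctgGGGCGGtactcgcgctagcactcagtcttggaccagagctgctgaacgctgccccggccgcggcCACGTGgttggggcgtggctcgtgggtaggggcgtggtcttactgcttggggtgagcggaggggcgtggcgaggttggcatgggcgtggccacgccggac
Rab11fip3: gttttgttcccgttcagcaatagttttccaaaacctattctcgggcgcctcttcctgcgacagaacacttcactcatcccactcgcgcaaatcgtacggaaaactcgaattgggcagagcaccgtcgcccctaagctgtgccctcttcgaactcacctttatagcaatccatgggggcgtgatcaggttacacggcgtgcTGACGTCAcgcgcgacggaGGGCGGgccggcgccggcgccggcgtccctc
Rab3ip: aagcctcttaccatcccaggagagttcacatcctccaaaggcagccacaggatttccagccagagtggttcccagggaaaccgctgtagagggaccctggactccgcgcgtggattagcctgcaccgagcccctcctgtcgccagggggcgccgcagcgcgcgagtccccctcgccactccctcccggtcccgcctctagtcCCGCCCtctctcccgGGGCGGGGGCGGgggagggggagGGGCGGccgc
Rab27a: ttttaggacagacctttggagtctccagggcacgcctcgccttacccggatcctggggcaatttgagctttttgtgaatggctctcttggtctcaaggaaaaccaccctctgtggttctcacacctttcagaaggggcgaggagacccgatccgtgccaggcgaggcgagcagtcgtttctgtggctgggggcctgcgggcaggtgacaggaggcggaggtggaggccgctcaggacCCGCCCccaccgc
The GC box was in all 5 windows, and it was common everywhere: 62 of the 78 members with a listed promoter held it (79.5%), against 63.6% of the 6587 array genes with one and 35.4% of all 27025 genes in the table. The cAMP response element was in Rab11fip3, Rab5a and Cope, 3.85% of the members, against 3.08% of array genes and 1.77% of all genes. The E-box was in 13 members (16.7%), Snx8 and Rab27a among the called genes, against 10.5% of array genes and 6.86% of all genes. These counts take any start listed for a gene, and the E-box of Rab27a is not in the window shown.

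A longer word that contains the E-box, GTCACGTGAC, the core of the CLEAR element found at lysosomal genes, was in 6 members (7.69%), against 0.653% of array genes and 0.27% of all genes. They are shown because they include endosomal Rabs and HOPS subunits. Each line is a window of 30 bases with the word in capitals, at chr17:53479127-53479156 (Rab5a, plus strand), chr10:115315604-115315633 (Rab21, minus strand), chr10:62486970-62486999 (Vps26a, minus strand), chr2:130424290-130424319 (Vps16, plus strand), chr5:123573016-123573045 (Vps33a, minus strand) and chr19:6141188-6141217 (Arl2, minus strand).
Rab5a: acccggggatGTCACGTGACttcggccccg
Rab21: gcccaccgcgGTCACGTGACgaggggtgtg
Vps26a: cgcacggctcGTCACGTGACaactagctct
Vps16: aggcggcctcGTCACGTGACcccgaagggc
Vps33a: atcacgtgaacgtcccGTCACGTGACgcag
Arl2: cactcctgtgGTCACGTGACaacgagggcg
None of these 6 genes was called, and their differences between invasive and PIN stroma ran from -0.53 (Arl2) to 0.36 (Rab5a) on the log2 scale, with a median of 0.17. The words were searched after the values of the genes were known, and a match is a description of the sequence.

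Snx6, a sorting nexin with a curved BAR domain that works with retromer to return cargo from endosomes to the Golgi, was 1.90-fold higher in invasive stroma. Its log2 ratio was at lowest 0.28, at the median 0.92 and at highest 1.77 over the invasive arrays, against 0.09, -0.24 and 0.17 in PIN replicates 2, 3 and 4. Every invasive value was above the PIN range, with invasive replicate 2 the highest and invasive replicate 1 close to the PIN range. The difference was 0.93 (SE 0.28, adjusted p = 0.136).

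Snx8, another BAR-domain sorting nexin of early endosomes, had the highest difference of the called genes, 0.99 (SE 0.31, adjusted p = 0.148). Its log2 ratio was at lowest 0.41, at the median 0.66 and at highest 1.70 in invasive stroma, against -0.05, -0.53 and 0.25 in PIN stroma. The groups did not overlap, and invasive replicates 2 and 5 stood above the other invasive arrays. Its 2 clones gave differences of 1.00 and 0.98, although neither passed when clones were tested singly (adjusted p = 0.206 and 0.352).

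Arf6, the Arf GTPase of the cell surface, which governs membrane recycling and the cortical actin beneath it, was 1.76-fold higher in invasive stroma. The invasive arrays ran from 0.48 through a median of 0.94 to 1.54, against 0.22, 0.48 and -0.33 in PIN stroma. The groups met at 1 point, where invasive replicate 5 equalled PIN replicate 3 to 2 decimals, and the other 5 invasive arrays were above all PIN arrays. The difference was 0.81 (SE 0.26, adjusted p = 0.148).

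Rab11fip3, an effector that ties Rab11 recycling endosomes to microtubule motors and to Arf6, had the smallest p of the members. Its log2 ratio was at lowest -0.90, at the median -0.75 and at highest -0.09 in invasive stroma, against -0.02, 0.31 and 0.33 in PIN stroma. All invasive arrays lay below all PIN arrays, but invasive replicate 1 was set apart from the other 5 and came within 0.1 of PIN replicate 2. The difference was -0.88 (SE 0.21, adjusted p = 0.071), a 1.84-fold lower value in invasive stroma.

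Rab3ip, also called Rabin8, is the exchange factor that loads Rab8 with GTP, for instance when a primary cilium is built. It was at lowest -1.60, at the median -1.15 and at highest -0.53 in invasive stroma, against -0.57, -0.17 and -0.15 in PIN stroma. Only invasive replicate 3 reached into the PIN range. The difference was -0.83 (SE 0.24, adjusted p = 0.119).

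Rab27a docks secretory granules, lysosome-related organelles and exosome-bearing endosomes at the plasma membrane, and it was the member with the largest fall. Its log2 ratio was at lowest -1.61, at the median -1.35 and at highest 0.17 in invasive stroma, against 0.68, 0.59 and -0.60 in PIN stroma. Invasive replicate 3 stood more than 1 unit above the other invasive arrays and PIN replicate 4 more than 1 unit below the other PIN arrays, so the groups overlapped through 1 array on each side. The difference was -1.37 (SE 0.40, adjusted p = 0.120), a 2.59-fold lower value.

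**Figure D1:**
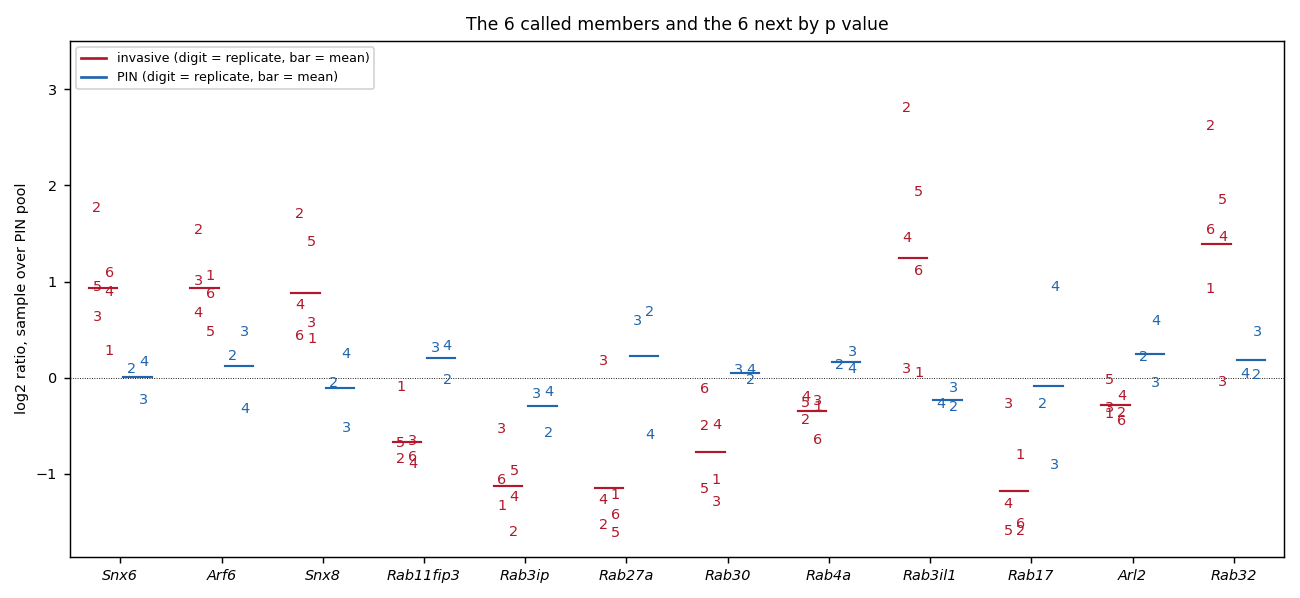
Log2 ratio of sample over PIN pool (vertical axis) for the 6 called members, Snx6 to Rab27a, and the 6 members next by p value, with each digit a replicate (invasive left, PIN right) and each bar a group mean. Snx6, Snx8, Rab11fip3, Rab30, Rab4a and Rab3il1 have no overlap between the groups, and invasive replicate 3 of Rab27a sits at 0.17, far above the other invasive arrays.

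The 6 calls rested on single arrays to different degrees. All 6 held without invasive replicate 3. Without invasive replicate 1, Arf6 was lost. Without invasive replicate 2, 5 or 6, Rab11fip3 was the only one of the 6 that passed, without PIN replicate 4 only Rab27a and Snx8 did, and without invasive replicate 4, PIN replicate 2 or PIN replicate 3 none did. No left-out array turned the direction of a called gene. Without invasive replicate 3, 15 members passed (8 higher and 7 lower, 15.5%, against 11.1% of all genes), the additional ones being Rab3il1, Rab32, Rab1a, Snx10 and Vps26c, higher, and Rab17, Rab30, Rab4a and Arl3, lower. Among the invasive arrays, replicate 3 had the lowest median of the macrophage (0.61), fibroblast (0.18) and endothelial (0.32) markers and the highest of the neuroendocrine (2.32), epithelial (-0.33) and smooth muscle (-0.39) markers. The part of this in the calls was not tested.

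Complete separation of the groups was seen for 7 members (7.22%, against 7.85% of all genes). Snx6, Snx8, Rab3il1 and Vps29 lay above PIN on every invasive array (4.12%, against 4.86%), and Rab11fip3, Rab30 and Rab4a lay below it (3.09%, against 2.99%). A difference over 1 in size was found for 4 members, Rab3il1 at 1.47, Rab32 at 1.21, Rab17 at -1.10 and Rab27a at -1.37 (4.12%, against 4.98% of all genes), and a difference over 0.5 in size for 18 (18.6%, against 19.7%). The median difference over the 97 genes was 0.10, against 0.02 over all genes, and 59 members had a difference above 0 (60.8%, against 52.0%). Standard errors ran from 0.17 to 0.51, so a difference of 0.3 lay within 2 standard errors for every member.

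**Figure D2:**
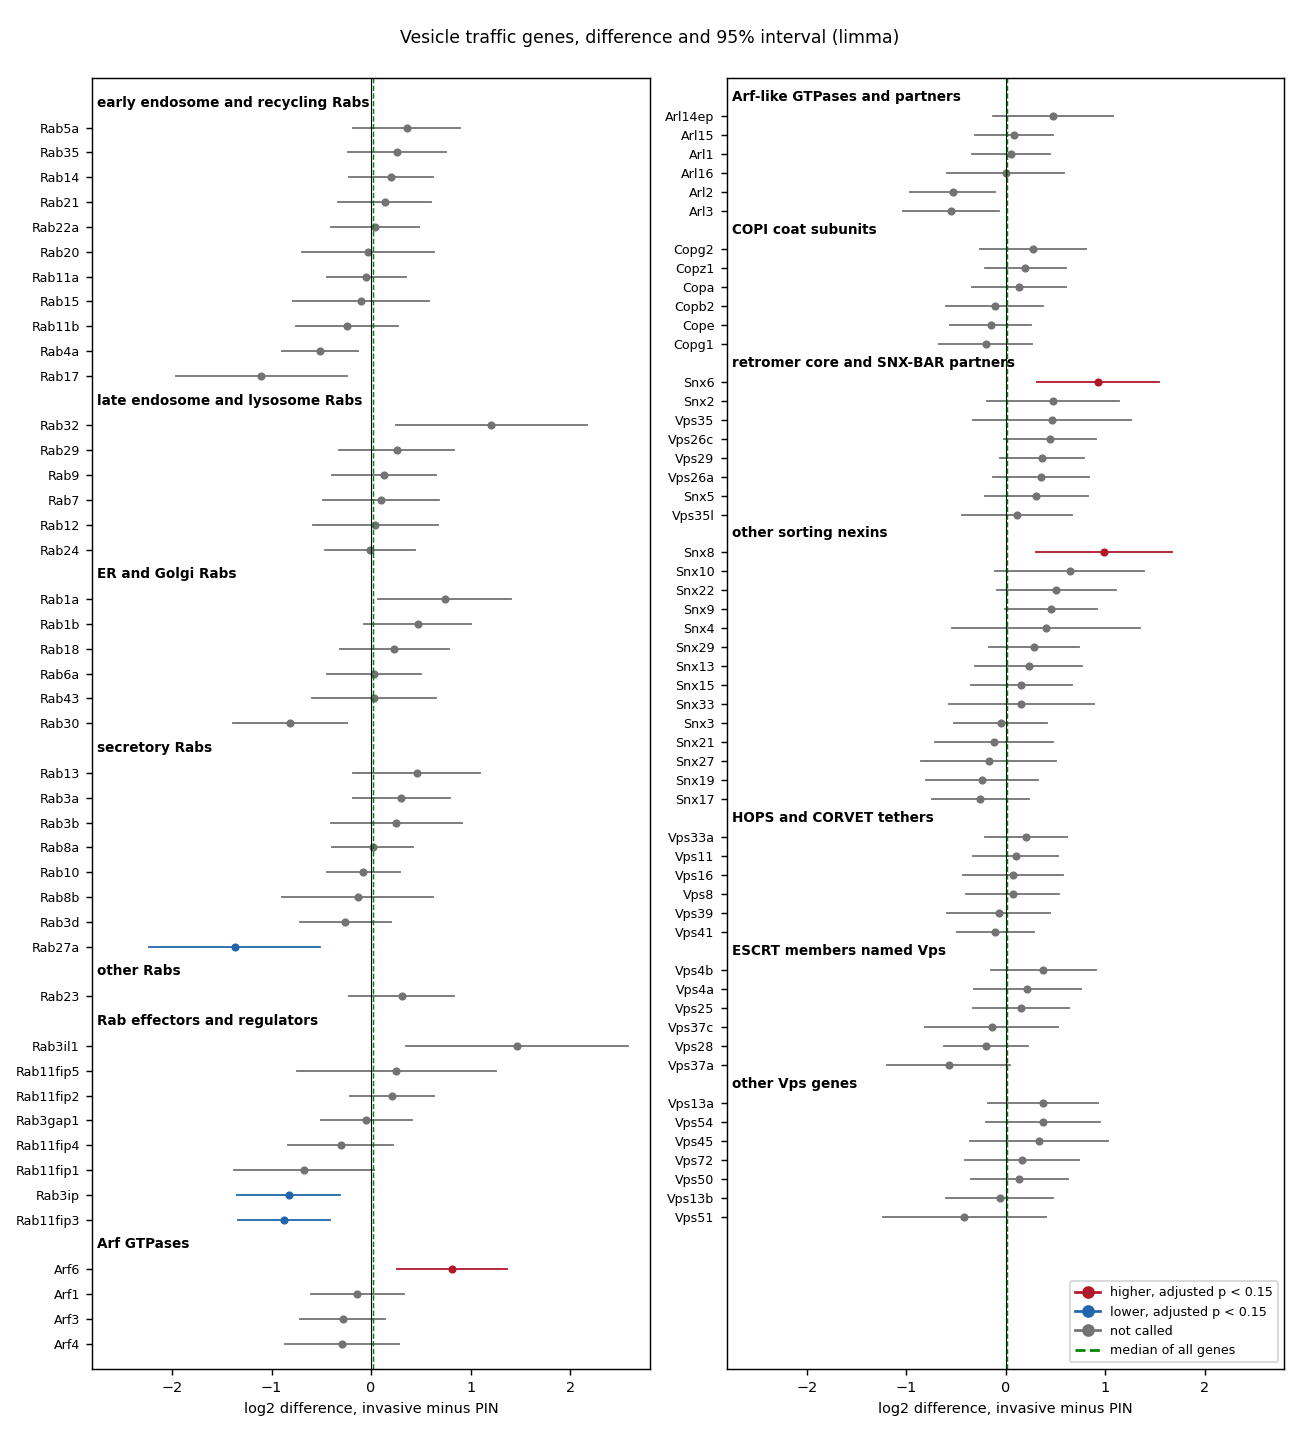
Difference in log2 ratio, invasive minus PIN (horizontal axis), with its 95% interval from limma for the 97 members, ordered by role, red for higher and blue for lower at an adjusted p under 0.15. Most intervals cross 0, the points of the 8 genes listed under retromer all lie to its right, and the dashed green line is the median of all genes, 0.02.

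The 32 Rab GTPases themselves held 1 called gene, Rab27a (3.12%, against 5.64% of all genes). Their median difference was 0.04, against 0.02 over all genes. The 11 Rabs of early and recycling endosomes held no called gene, and 5 of them had a difference above 0 (45.5%, against 52.0% of all genes). Rab5a, the master regulator of early endosome fusion, had 0.36 (SE 0.25), and Rab11a, which marks recycling endosomes, had -0.05 (SE 0.18), the mean of 3 clones at 0.22, 0.00 and -0.36. Rab17, a Rab found mainly in polarised epithelial cells, ran from -1.60 through a median of -1.42 to -0.27 over the invasive arrays, against -0.28, -0.91 and 0.94 in PIN stroma. PIN replicates 2 and 3 fell inside the invasive range, and the difference of -1.10 (SE 0.40) had an adjusted p of 0.198.

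Rab4a, which drives fast recycling from early endosomes, was at lowest -0.64, at the median -0.28 and at highest -0.20 in invasive stroma, against 0.13, 0.26 and 0.09 in PIN stroma. The groups were apart, with a difference of -0.51 (SE 0.17, adjusted p = 0.177), but the value is the mean of 2 clones that did not move together. One clone gave 0.10 and the other -1.12, and over the 9 arrays their r was -0.70.

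Among the 6 Rabs of late endosomes and lysosomes none was called. Rab7, which controls fusion with the lysosome, had a difference of 0.10 (SE 0.27) from clones at 0.23 and -0.02, and Rab29, a Rab of the Golgi and of stressed lysosomes, had 0.26 (SE 0.27). Rab32, which serves melanosomes and other lysosome-related organelles, ran from -0.04 through a median of 1.502 to 2.62 in invasive stroma, against 0.03, 0.48 and 0.04 in PIN stroma. Of the invasive arrays, 5 were above all PIN arrays and replicate 3 was below them, and the difference was 1.21 (SE 0.44, adjusted p = 0.208).

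The 6 Rabs of the endoplasmic reticulum and Golgi were also without a call. Rab1a, needed for transport from the endoplasmic reticulum to the Golgi, ran from -0.06 through 0.61 to 1.41 in invasive stroma, against -0.09, 0.11 and -0.08 in PIN stroma, and 5 invasive arrays were above all PIN arrays (difference 0.74, SE 0.31, adjusted p = 0.276). Its close relative Rab1b had 0.47 (SE 0.25). Rab30, a Golgi Rab, went the other way, at lowest -1.30, at the median -0.78 and at highest -0.11 in invasive stroma, against -0.03, 0.08 and 0.08 in PIN stroma. All invasive arrays of Rab30 were below all PIN arrays, and at an adjusted p of 0.154 it missed the threshold narrowly (difference -0.82, SE 0.26).

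Of 8 Rabs of regulated secretion and surface delivery, Rab27a was the only call (12.5%, against 5.64% of all genes). The others ran from -0.26 (Rab3d, of exocrine secretory granules) to 0.46 (Rab13, a Rab of tight junctions, SE 0.29, adjusted p = 0.515). Rab3a, the Rab of synaptic and neuroendocrine vesicles, had 0.30 (SE 0.22). Rab23, which restrains Hedgehog signalling, had 0.31 (SE 0.24, adjusted p = 0.621) and was placed in no compartment.

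The 8 effectors and regulators of Rabs held the calls Rab11fip3 and Rab3ip, both lower (2 of 8, where 1.89% of all genes were called lower), and their median difference was -0.18. Rab3il1, the paralog of Rab3ip and likewise an exchange factor, pointed the other way. It was at lowest 0.05, at the median 1.28 and at highest 2.81 in invasive stroma, against -0.31, -0.11 and -0.27 in PIN stroma. The groups were apart, yet invasive replicates 1 and 3 lay near 0 and the other 4 above 1, and the difference of 1.47, the largest of all members, had an SE of 0.51 and an adjusted p of 0.186. Rab11fip1, another Rab11 effector, had -0.67 (SE 0.32, adjusted p = 0.353).

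Macrophage markers were higher in invasive stroma. Of 22 symbols listed, 7 could be tested and 6 were called higher, where 3.75% of all genes were. The median of the tested genes was 2.43, 2.74, 0.61, 2.66, 2.71 and 2.64 in invasive replicates 1 to 6, against -0.46, 0.43 and -0.23 in PIN stroma. Rab32 and Rab3il1 were high on invasive replicates 2, 4, 5 and 6 and near 0 on replicate 3. The macrophage, fibroblast and endothelial medians all had their lowest invasive value on replicate 3. On replicate 1, Rab32 was at 0.93 and Rab3il1 at 0.05, where the macrophage median was 2.43. Fibroblast markers were higher as well (14 listed, 10 tested, 4 called), with medians from 0.18 to 1.40 in invasive stroma and from -0.55 to 0.22 in PIN stroma. So were endothelial markers (12 listed, 7 tested, 2 called), with medians from 0.32 to 1.64 and from -0.03 to 0.09. Smooth muscle markers were lower (11 listed, 6 tested, 4 called, where 1.89% of all genes were called lower). Their medians ran from -3.96 to -0.39 in invasive stroma and from -0.60 to 0.36 in PIN stroma. Ratios carry no level, so the presence of a cell type could not be read from them. The part of these cell types in the values of the traffic genes was not tested.

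Of 10 epithelial markers tested (15 listed), Krt7 was called higher and Tspan8 lower. The median of the tested genes was between -1.33 and -0.33 on the invasive arrays, against -1.18, -0.98 and 0.60 in PIN replicates 2, 3 and 4. Rab17 also had its highest PIN value, 0.94, on replicate 4, whereas Rab27a had its lowest PIN value, -0.60, on that array. Of 6 neuroendocrine markers tested (14 listed), the tumour cells' own lineage, Foxa2 was called higher. The median ran from 0.37 to 2.32 in invasive stroma and from -0.10 to 0.29 in PIN stroma. The part of epithelial and tumour cell RNA in the traffic genes was not tested either.

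**Figure D3:**
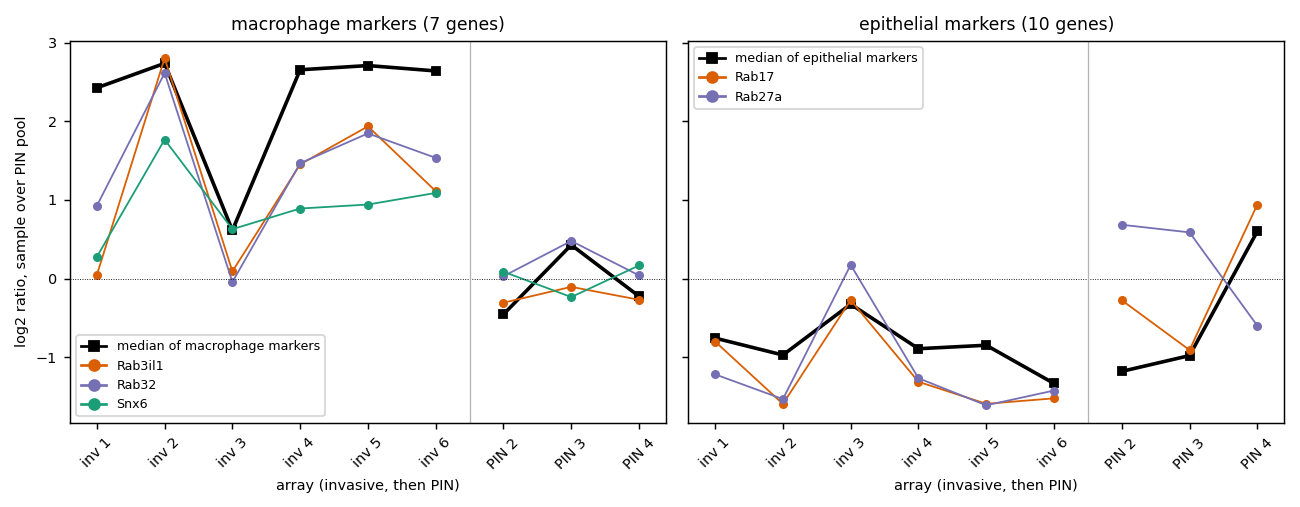
Log2 ratio of sample over PIN pool (vertical axis) on each array, invasive first, for the median of the macrophage markers with Rab3il1, Rab32 and Snx6 (left) and the median of the epithelial markers with Rab17 and Rab27a (right). Invasive replicate 3 has the lowest macrophage median of the invasive arrays, 0.61, and PIN replicate 4 has the highest epithelial median, 0.60. Snx6 is lowest on invasive replicate 1, at 0.28, where the macrophage median is 2.43, and is at 0.63 on invasive replicate 3.

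Arf6 was the only 1 of the 4 Arf GTPases with a difference above 0. Arf1, the Arf that recruits COPI, had -0.14 (SE 0.22), Arf3, a Golgi Arf close to it, -0.29 (SE 0.20, adjusted p = 0.549), and Arf4, of the early Golgi, -0.29 (SE 0.26). The 6 COPI subunits held no call and ran from -0.20 (Copg1, a gamma subunit, with clones at -0.48 and 0.08) to 0.27 (Copg2), with a median of 0.01. Copg2, the other gamma subunit, had 2 clones at -0.11 and 0.66, and Copz1, a zeta subunit, had 0.20 (SE 0.19, adjusted p = 0.696).

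The Arf-like genes held no call. Arl2 and Arl3, which release lipid-anchored cargo, Arl3 at the cilium, had the lowest differences of the 6. Arl3 was at lowest -0.82, at the median -0.51 and at highest -0.09 in invasive stroma, against 0.38, 0.09 and -0.36 in PIN stroma, and 5 of 6 invasive arrays were below all PIN arrays (difference -0.55, SE 0.22, adjusted p = 0.252). Arl2 was at lowest -0.45, at the median -0.34 and at highest -0.02 in invasive stroma, against 0.21, -0.06 and 0.59 in PIN stroma. Again 5 of 6 invasive arrays were below all PIN arrays (difference -0.53, SE 0.19, adjusted p = 0.206).

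The list of retromer and its sorting nexins had 8 genes, all 8 with a difference above 0 (52.0% of all genes were above 0). Their median was 0.40, against 0.02 over all genes, and Snx6 was their 1 call (12.5%, against 5.64% of all genes). All 8 stayed above 0 when arrays were centred, scaled or quantile-normalized, with medians of 0.40, 0.36 and 0.35. Array medians already lay between -0.0034 and 0.008, so centring could hardly turn a sign. Scaling multiplies all values of an array by the same factor, and quantile normalization keeps their order within the array. These settings are therefore no independent check of the signs. Without invasive replicate 1, 7 of 8 were above 0, and Vps35l had -0.05. With the invasive arrays set against 0, the PIN pool, 7 of 8 were above 0 and the median was 0.25. By the clone of each gene with the smallest p the median was 0.61, but that choice favours clones with large differences and is no check of the shift. The list holds the 3 retromer subunits Vps26a, Vps29 and Vps35, the BAR-domain nexins Snx2, Snx5 and Snx6, and Vps26c and Vps35l, subunits of the related retriever complex. The 14 other sorting nexins were counted apart, 9 of them above 0. Snx3 (-0.05), Snx27 (-0.17) and Snx17 (-0.26) were among those below, so the 8 of 8 depends on where the list was cut. Vps29 was at lowest 0.04, at the median 0.24 and at highest 0.70 in invasive stroma, against -0.24, -0.02 and 0.02 in PIN stroma. The groups of Vps29 did not overlap, by a gap of 0.02, and its difference was 0.36 (SE 0.19, adjusted p = 0.413).

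Vps35, the backbone of retromer, varied most of the 3 subunits, from -0.68 through a median of 0.22 to 1.19 in invasive stroma, against -0.21, -0.26 and -0.27 in PIN stroma. Invasive replicates 5 and 6 were below the PIN arrays and the other 4 above them, and the difference was 0.46 (SE 0.37, adjusted p = 0.620). Vps26a, a cargo-selective subunit, ran from -0.31 through 0.26 to 0.51, against -0.19, -0.16 and -0.22, with 4 of 6 invasive arrays above PIN (difference 0.36, SE 0.22, adjusted p = 0.504). Its 3 clones gave 0.18, 0.53 and 0.35. Snx2 (0.48, SE 0.30) and Snx5 (0.31, SE 0.24) each had clones of opposite sign, 1.15 and -0.19 for Snx2 and -0.10 and 0.71 for Snx5. Vps26c (0.45, SE 0.21, adjusted p = 0.349) and Vps35l (0.11, SE 0.26) did not pass.

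**Figure D4:**
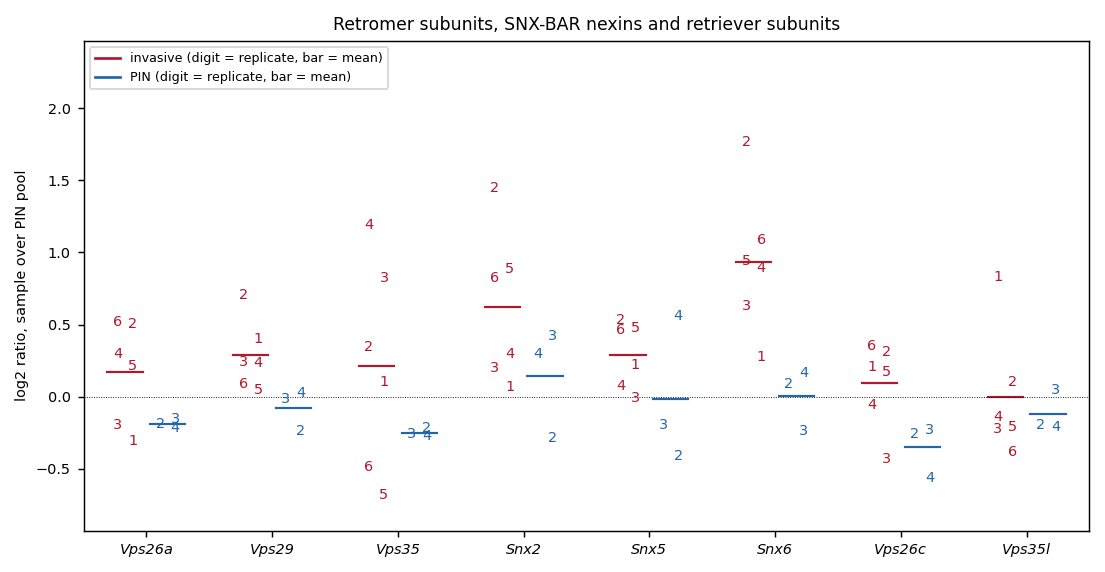
Log2 ratio of sample over PIN pool (vertical axis) for retromer subunits, BAR-domain nexins and retriever subunits, with each digit a replicate (invasive left, PIN right) and each bar a group mean. Snx6 and Vps29 have no overlap between the groups, and Vps35 spreads from -0.68 to 1.19 over the invasive arrays.

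The 14 other sorting nexins had a median difference of 0.19, against 0.02 over all genes, with 9 above 0 (64.3%, against 52.0%). Snx8 was their call (7.14%, against 5.64% of all genes). Snx10, needed for the acid-secreting border of osteoclasts, had 0.64 (SE 0.34), and Snx9, which works with dynamin in endocytosis at the plasma membrane, had 0.45 (SE 0.21, adjusted p = 0.341), with 5 of 6 invasive arrays above all PIN arrays. Snx17, which recycles integrins and lipoprotein receptors, had the lowest difference, -0.26 (SE 0.22).

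The tethers and sorting complexes named Vps showed no call. The 6 HOPS and CORVET genes, which dock membranes with endosomes and lysosomes, stayed between -0.10 (Vps41, a HOPS subunit, SE 0.18, adjusted p = 0.852) and 0.21 (Vps33a, the subunit that binds SNAREs, SE 0.19, adjusted p = 0.686). Vps33a had clones at 0.41 and 0.00, and Vps41 had 4 clones between -0.34 and 0.16. Of the 6 ESCRT genes, Vps37a, a subunit of ESCRT-I, had -0.57 (SE 0.28, adjusted p = 0.367) and Vps4b, the ATPase that takes ESCRT-III apart, had 0.38 (SE 0.24, adjusted p = 0.516). Of the 7 remaining Vps genes, Vps13a, a lipid transfer protein, had 0.38 (SE 0.25, adjusted p = 0.542) and Vps54, of the GARP tether at the Golgi, had 0.37 (SE 0.26, adjusted p = 0.569).

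Where a gene was spotted more than once, its clones often differed. Of 32 members with several clones, 17 had clones whose differences had opposite signs, and Snx2 and Rab4a had clones more than 1 unit apart. Over the 9 arrays the 55 pairs of clones of 1 member had a median r of 0.07, from -0.85 to 0.94, with 22 pairs below 0, against a median r of 0.26 for the 6781 pairs of clones of 1 symbol over all genes. Of 139 member clones tested singly, 1 passed an adjusted p under 0.15, that of Rab11fip3. Of the 6 called genes, 5 were measured by 1 clone.

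**Figure D5:**
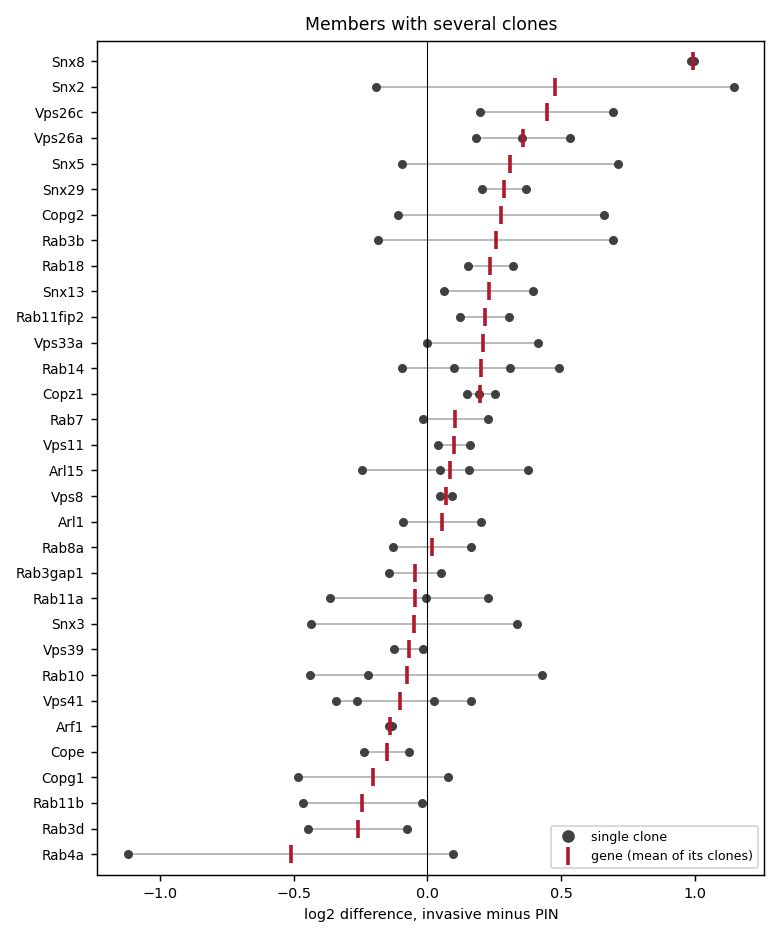
Difference in log2 ratio, invasive minus PIN (horizontal axis), of each clone (grey points) and of the gene (red mark, the mean of its clones) for the 32 members with several clones. The clones of Snx8 coincide at 1.00 and 0.98, and those of Snx2 and Rab4a are more than 1 unit apart.

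Genes outside the rule that work with these proteins were counted in the same fit. Of 231 listed partners 161 could be tested, and 4 were called higher and 2 lower (3.73%, against 5.64% of all genes), with a median difference of 0.11, against 0.02 over all genes. The clathrin and adaptor list held 3 of the higher genes out of 27 tested (11.1%, against 3.75% of all genes called higher) and had a median of 0.33. They were Dab2, an endocytic clathrin adaptor, with a difference of 2.37 (SE 0.50, adjusted p = 0.051), Ap3s1, a subunit of the AP-3 adaptor of lysosomal sorting, with 1.14 (SE 0.34, adjusted p = 0.130), and Ap2a2, a subunit of the AP-2 adaptor of endocytosis, with 0.87 (SE 0.27, adjusted p = 0.144). Ap2a2 was chosen for mention after its values were seen.

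Dab2 was at lowest 0.54, at the median 2.17 and at highest 3.26 in invasive stroma, against -0.47, 0.22 and -0.95 in PIN stroma. All its invasive arrays were above all PIN arrays. Its lowest invasive array was replicate 3, as for the macrophage, fibroblast and endothelial medians. On invasive replicate 1 Dab2 was at 1.19, where the macrophage median was 2.43. Exoc5, an exocyst subunit, was the fourth higher gene (0.65, SE 0.20, adjusted p = 0.134). The lower genes were Tbc1d1, a GTPase-activating protein for Rabs (-0.72, SE 0.21, adjusted p = 0.123), and Golga4, a golgin of the trans-Golgi (-0.59, SE 0.17, adjusted p = 0.128).

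No call was made among 38 SNAREs and their recycling factors, where Stxbp3, a syntaxin-binding protein, had 0.80 (adjusted p = 0.1502) and Napg, a SNARE recycling factor, 0.57 (adjusted p = 0.197). None was made among 27 tested genes from the list of COPII genes, cargo receptors and the COPI subunit Arcn1. There Ergic3 had 0.41 (adjusted p = 0.401) and Sec24d, a COPII coat subunit, 0.51 (adjusted p = 0.415). The 11 ESCRT genes not named Vps also held no call, with Chmp7 at -0.33 (adjusted p = 0.601) and Chmp5 at 0.33 (adjusted p = 0.622). Psd3, an exchange factor for Arf6, had 0.83 (SE 0.28, adjusted p = 0.167), with all invasive arrays above all PIN arrays. Gdi2, which keeps Rabs soluble in the cytosol, had 0.54 (adjusted p = 0.424), and Golga3, a golgin, had -0.57 (adjusted p = 0.191).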

How the data were processed

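The authors microdissected stroma, amplified its RNA in 2 rounds, hybridised each sample (Cy5) with the PIN pool (Cy3) to spotted cDNA clones of the NIA 17k set, read the spots with ScanAlyze and normalized each array by print-tip lowess without background subtraction. What they deposited is, per clone and array, the log2 ratio of Cy5 over Cy3. Spot intensities were not used here, so signal over background is unknown. The array of the remaining PIN sample was not analysed here.

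Of 17664 rows, 457 held no value, 12563 had 1 symbol in the platform annotation, 412 several and 4689 none. The gene value on an array was the mean of its clones. The 8106 genes measured on 4 or more invasive and 2 or more PIN arrays were compared, invasive minus PIN, with limma 3.58.1 in R 4.3.3 (lmFit, eBayes, two-sided, Benjamini-Hochberg over all genes), called at an adjusted p under 0.15, with 0.05 beside it. The procedure was tested on simulated data. Each array held 17189 to 17206 values, with an SD of 0.69 to 0.81 in invasive and 0.54 to 0.57 in PIN arrays. Over all clones, r was 0.256 to 0.769 within invasive, 0.176 to 0.672 within PIN and 0.218 to 0.529 between groups. The number of arrays limits the precision.

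Named are all members passing, the 5 largest differences each way, the 2 smallest p of each role and partner list, and 19 others as examples of their role, chosen after their values were seen. Clones are given singly where they differ in sign or by over 1. Members and lists were chosen with earlier results of these data known. Alternatives were other tests, weights, normalizations, filters, clone summaries, left-out arrays and a replicate block. Promoters are from RefSeq (GRCm38.p6) and matched 78 members by symbol. Python 3.11.15 and pandas 2.3.3 were used.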

Additional observations from a re-analysis of the deposited data

Results flagged for a closer look

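Among 61 named genes, 6 had an invasive array far from the other invasive arrays by Dixon's criterion, which chance meets in about 1 group in 20. Invasive replicate 1 of Rab11fip3 was the highest at -0.0919, with the nearest invasive array at -0.66. Invasive replicate 3 of Rab27a was the highest at 0.17, with the nearest at -1.22. Invasive replicate 3 of Rab13 was the lowest at -0.27, with the nearest at 0.53. Invasive replicate 6 of Rab5a was the highest at 0.77, with the nearest at 0.20, and invasive replicate 5 of Rab1b was the highest at 0.645, with the nearest at 0.00. Invasive replicate 6 of Rab3d was the lowest at -0.65, with the nearest at -0.29.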

How the results depend on the processing

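The count of calls depended on the setting. Against 3 members higher and 3 lower, the methods' t-test called 0 and 0 (and 0.666% of all genes), Welch's test 0 and 2 (2.55%), array quality weights 15 and 7 (20.8%), centring of the arrays on their median 1 and 3 (5.35%), scaling between arrays 2 and 2 (4.61%), quantile normalization 0 and 2 (3.97%), clones tested singly 0 and 1 (3.29%), the invasive arrays against 0 (the PIN pool) 15 and 10 (32.0%), and an adjusted p under 0.05 0 and 0 (0.938%). The methods' t-test was run here on gene means over 9 arrays. The study tested single clones and also had the array of the remaining PIN sample, so its counts cannot be set beside these. Leaving out 1 array gave 0 to 8 higher and 0 to 7 lower. Robust empirical Bayes, complete clones and the median of clones each called the same 6 genes. Of the partner genes, 4 higher and 2 lower, the t-test of the methods called 0 and 1, scaling between arrays 1 lower, quantile normalization 2 higher, and an adjusted p under 0.05 0 and 0, and left-out arrays gave 0 to 13 higher and 0 to 4 lower. The shared replicate numbers did not pair the samples (r -0.086, -0.100 and -0.019 over genes for numbers 2, 3 and 4, and no PIN array correlated best with its own number), and with them as a replicate block 0 members were called either way, with 1 partner higher and 0 lower. No called gene changed sign. The sign turned with the invasive arrays against 0 for Rab23 (-0.0197), Rab7 (-0.0796), Rab1b (-0.0387) and Vps35l (-0.00535), with the replicate block for Rab29 (-0.0555) and Rab11a (0.106), with array weights for Rab7 (-0.0304), with the median of clones for Rab11a (0.0466), without invasive replicate 1 for Vps35l (-0.0525, with -0.0525 to 0.197 over left-out arrays), without PIN replicate 3 for Rab11a (0.00403, with -0.116 to 0.00403), and without PIN replicate 4 for Rab7 (-0.124, with -0.124 to 0.301), Arf1 (0.0553, with -0.251 to 0.0553) and Copg1 (0.0234, with -0.330 to 0.0234). Of the other values of named members, 841 kept direction and call, 68 lost the call and 44 gained one, and of those of named partners 231, 62 and 22. Over 21 alternatives Rab11fip3 passed in 15, Rab27a in 11, Snx6 and Snx8 in 9 each, Rab3ip in 8 and Arf6 in 6. The causes of these changes were not tested, and the left-out settings also had fewer arrays.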
